A study of Mus musculus with 295 samples.

Results

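Genes of the Wnt pathway that code for its ligands, receptors, secreted antagonists and first intracellular relays were followed in the adipose tissue of 295 F2 mice. They were chosen by symbol in the platform's probe table: Wnt, Fzd, Sfrp and Dkk followed by a number, with Wif1, Frzb, Lrp5, Lrp6, Axin1, Axin2, Ctnnb1, Dvl1, Dvl2 and Dvl3, and without Sfrp5. Probes with a value on at least 90% of the arrays were used. The rule gave 43 genes and 45 probes of 11454 genes and 22894 probes analysed, made up of 17 ligands, 11 receptors, 9 antagonists and 6 intracellular genes. All 43 passed the filter. Lrp6 and Wnt8b had 2 probes each, and every gene is represented by its more variable probe.

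The mice came from an intercross of C57BL/6J and C3H/HeJ, both parents lacking ApoE, and ate a Western diet rich in fat between 8 and 24 weeks of age. Each mouse's adipose RNA, labelled with Cy3, was hybridised once against a Cy5-labelled pool of all the RNAs. Females and males were studied, but no label gives a mouse's sex, genotype or body weight, so all mice form 1 group. The sample labels speak of more F2 mice than the 295 analysed here. Values are log2 ratios of mouse over pool. The sources used here do not state the log base or the direction of the deposited ratios. The direction was read from the values, and the base was taken as log10, which the values do not settle. Sizes in log2 or fold units, and counts past a fold or a log2 level other than 0, rest on that base, whereas r, rho, p, the counts of called genes and the order of mice do not.

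Wnt proteins are secreted glycoproteins that bind Frizzled receptors and the co-receptors Lrp5 and Lrp6. The signal passes through Dishevelled proteins, stops the Axin complex from breaking down beta-catenin, and lets beta-catenin drive transcription with Tcf/Lef factors. Some ligands, such as Wnt5a and Wnt11, signal mainly without beta-catenin. Secreted Frizzled-related proteins and Wif1 bind the ligands, and the Dickkopf proteins Dkk1, Dkk2 and Dkk4 bind Lrp5 and Lrp6. In fat, Wnt10b is the ligand best known for holding back the formation of adipocytes.

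The promoters of 28 of the 43 genes were matched by symbol in RefSeq's table for GRCm38.p6, each a window of 300 bases that runs from 250 bases before the start of transcription to 50 after it. The windows below belong to a pair of neighbouring ligand genes whose mRNAs varied together (Wnt3 and Wnt9b), to a pair of ligand genes high in the same mice (Wnt10b and Wnt4) and to the antagonist gene Frzb. Capitals mark the letters CTTTGA or their reverse complement, the core of the Tcf/Lef motif, searched on both strands. Wnt3 lies at chr11:103773925-103774224 on the plus strand and Wnt9b at chr11:103749772-103750071 on the minus strand. Wnt10b lies at chr15:98778101-98778400 on the minus strand, Wnt4 at chr4:137277385-137277684 on the plus strand and Frzb at chr2:80447347-80447646 on the minus strand.
Wnt3: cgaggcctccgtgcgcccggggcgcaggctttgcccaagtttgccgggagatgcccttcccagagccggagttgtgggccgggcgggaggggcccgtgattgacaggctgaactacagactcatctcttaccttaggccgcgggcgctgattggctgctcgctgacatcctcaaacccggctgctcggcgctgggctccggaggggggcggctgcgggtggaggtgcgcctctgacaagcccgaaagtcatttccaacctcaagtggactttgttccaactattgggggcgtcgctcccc
Wnt9b: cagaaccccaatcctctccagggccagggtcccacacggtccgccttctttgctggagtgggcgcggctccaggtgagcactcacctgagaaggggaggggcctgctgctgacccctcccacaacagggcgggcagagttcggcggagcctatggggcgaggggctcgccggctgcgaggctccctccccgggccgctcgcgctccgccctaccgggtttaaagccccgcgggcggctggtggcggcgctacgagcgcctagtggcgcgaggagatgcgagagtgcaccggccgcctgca
Wnt10b: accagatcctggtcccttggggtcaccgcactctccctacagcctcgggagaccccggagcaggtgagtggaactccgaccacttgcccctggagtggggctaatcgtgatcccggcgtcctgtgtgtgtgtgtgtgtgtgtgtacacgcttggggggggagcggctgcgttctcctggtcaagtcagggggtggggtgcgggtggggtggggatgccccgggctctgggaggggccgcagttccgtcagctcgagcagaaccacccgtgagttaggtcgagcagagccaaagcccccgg
Wnt4: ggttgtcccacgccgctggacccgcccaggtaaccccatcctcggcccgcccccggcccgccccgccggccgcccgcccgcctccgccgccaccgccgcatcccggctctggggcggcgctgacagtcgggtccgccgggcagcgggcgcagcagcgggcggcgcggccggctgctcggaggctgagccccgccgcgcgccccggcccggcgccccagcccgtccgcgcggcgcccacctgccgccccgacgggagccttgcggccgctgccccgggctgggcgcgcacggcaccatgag
Frzb: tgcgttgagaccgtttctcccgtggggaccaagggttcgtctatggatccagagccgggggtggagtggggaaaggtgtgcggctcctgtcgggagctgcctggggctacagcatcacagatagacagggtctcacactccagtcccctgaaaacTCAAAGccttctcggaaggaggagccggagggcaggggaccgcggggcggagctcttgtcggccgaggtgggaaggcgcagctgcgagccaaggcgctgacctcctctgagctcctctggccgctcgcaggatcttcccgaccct

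Of these 5 windows, the letters were found in that of Frzb alone, where the match starts 95 bases before the start of transcription. Of the 28 Wnt windows 4 held them (Dkk1, Frzb, Fzd1 and Wnt11), while 16.2% of all 27025 windows of this length did. A second motif, CAAGGNCA, the letters bound by the steroidogenic factor 1 family, was in 0 of the 28 windows and in 6.67% of all windows. No match of the 2 motifs therefore overlapped. The Wnt windows were rich in G and C, with a median of 71.5% against 52.7% over all windows. Wnt4 had 84.3%, Wnt9b 71.7%, Wnt10b 66.3%, Wnt3 65.7% and Frzb 64.7%.

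Before the results, 4 sets of arrays have to be told apart, because many Wnt genes differed between them. The log2 ratio of Eif2s3y, a gene on the Y chromosome, fell into 2 clusters, with 142 mice at or below -4.16 and 153 at or above -0.10. Among the 153 Eif2s3y-high mice, 48 carried high levels of epididymis genes, a mean z-score of at least 1.66 over 11 genes, against at most 0.56 in every other mouse. Among the 142 Eif2s3y-low mice, 52 carried high levels of ovary genes, a score of at least 0.63 over 17 genes, against at most 0.35 in every other mouse. Of the 17 ovary genes, 15 had an r above 0.3 to the others. The ovary list, with its split, was added after values had been seen. This left 90 other Eif2s3y-low and 105 other Eif2s3y-high mice. The sets come from the data and are not groups of the study, so medians and ranges are given for them without a test.

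Markers of other cells moved with these sets. The epithelial score had a median of 1.63 in the epididymis-high arrays, against -0.02 in the ovary-high arrays, -0.60 in the other Eif2s3y-low arrays and -0.55 in the other Eif2s3y-high arrays. The steroid hormone synthesis score had a median of 1.27 in the ovary-high arrays, against -0.45, -0.30 and -0.17 in the other Eif2s3y-low, other Eif2s3y-high and epididymis-high arrays. Of its 7 genes, 5 had an r above 0.3 to the others. The adipocyte score, a mean over 12 genes each with an r of at least 0.59 to the others, lay between -2.68 and -0.04 in the epididymis-high arrays, against medians of 0.21 in the ovary-high, 0.63 in the other Eif2s3y-low and -0.06 in the other Eif2s3y-high arrays. The part of these cells in the results below was not tested beyond giving each value within the sets and without the 2 sets of 52 and 48 arrays. In bulk tissue, fewer cells of a type and less RNA per cell cannot be told apart. With 1 array a mouse, the spread over mice also holds the error of the measurement.

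The antagonists varied most. Their median SD over mice was 0.70 in log2 units, against 0.34 for ligands, 0.26 for receptors and 0.24 for intracellular genes. Over all 43 genes the median SD was 0.30, near the 0.31 of all 11454 genes. The span of the central 90% of mice reached 2-fold in 7 of 9 antagonists, 9 of 17 ligands, 2 of 11 receptors and 1 of 6 intracellular genes. That is 44.2% of the Wnt genes, against 45.4% of all genes.

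**Figure D1:**
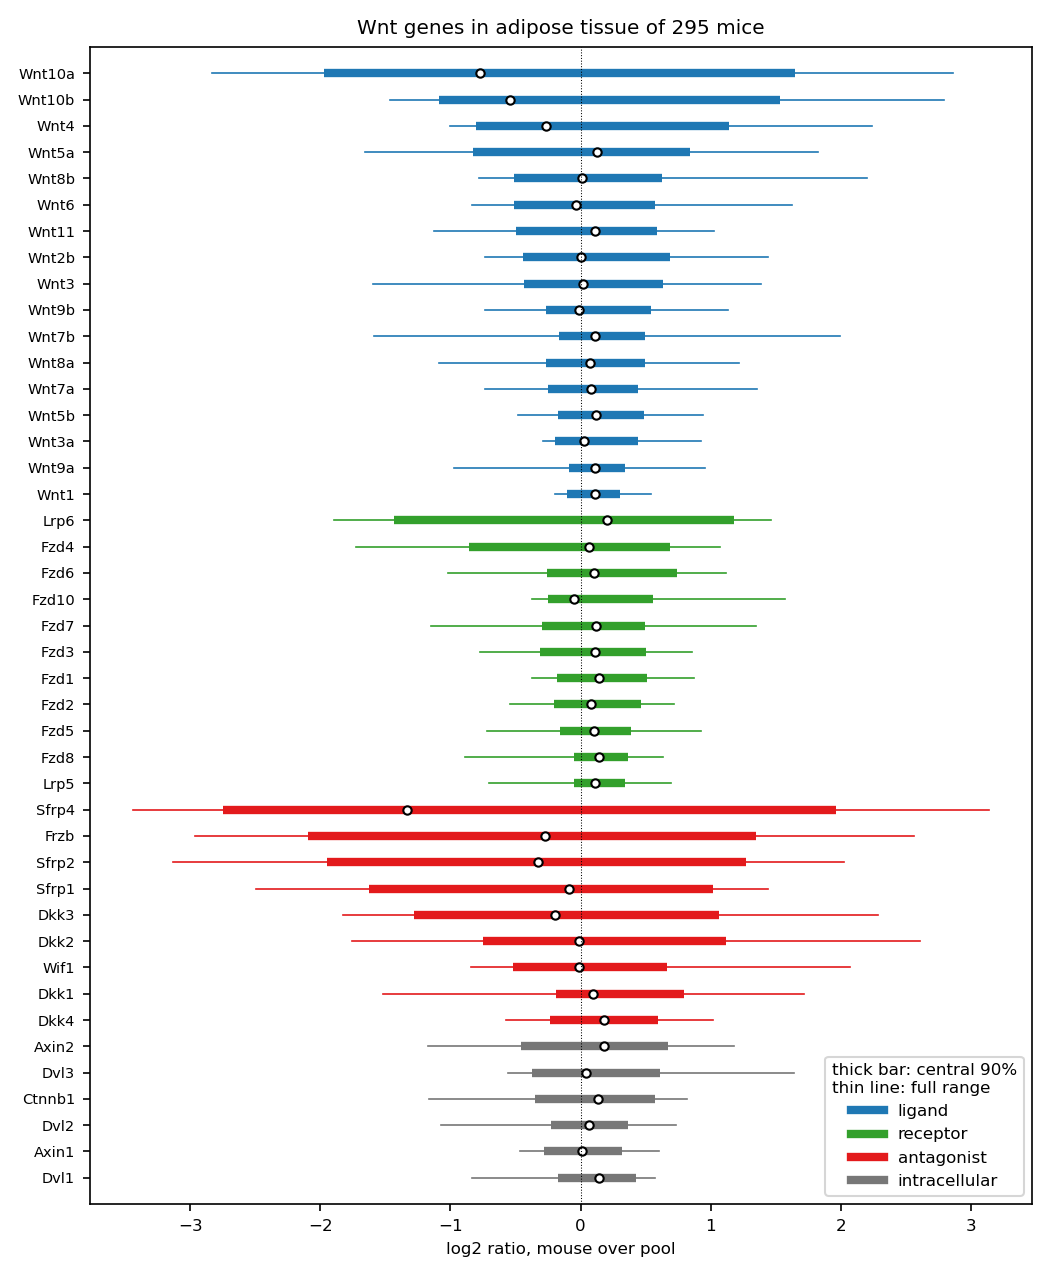
Log2 ratio of mouse over pool (horizontal axis) for the 43 Wnt genes over 295 mice, ordered by role and SD; thick bars hold the central 90% of mice, thin lines the full range, and open points are medians. Sfrp4, Wnt10a, Frzb and Sfrp2 have the longest bars, and Wnt1, Lrp5 and Fzd8 the shortest.

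The widest range was that of Sfrp4, a secreted Frizzled-related protein, from -3.44 through a median of -1.33 to 3.14, with a 26.3-fold span of the central 90% and an SD of 1.35 ± 0.06 (SE, n = 295). Wnt10a, a ligand of skin appendages and teeth, ran from -2.83 through -0.77 to 2.86, a span of 12.3-fold. Frzb, a secreted Frizzled-related protein first described in cartilage, ran from -2.96 through -0.27 to 2.56, a span of 10.8-fold. These 3 genes were each more variable than at least 97.9% of probes.

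Sfrp2 ran from -3.13 through -0.32 to 2.03, Sfrp1 from -2.49 through -0.09 to 1.44, and Dkk3, a divergent Dickkopf protein, from -1.83 through -0.19 to 2.29. Their spans were 9.34-fold, 6.27-fold and 5.06-fold. On its more variable probe Lrp6 ran from -1.90 through 0.20 to 1.46, a span of 6.11-fold. Wnt10b ran from -1.47 through -0.54 to 2.79, a span of 6.15-fold. Wnt4 followed with an SD of 0.60, Dkk2 with 0.57 and Wnt5a with 0.51, and all other genes lay below these. At the other end, Wnt1, a ligand of the developing brain, had an SD of 0.13, Lrp5 of 0.14 and the receptor Fzd8 of 0.15.

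Without the ovary-high and epididymis-high arrays the SD of Sfrp4 was 0.71, of Wnt10b 0.31 and of Wnt4 0.29, against 1.35, 0.77 and 0.60 with them. Frzb, Sfrp2, Sfrp1 and Lrp6 kept SDs of 1.09, 1.11, 0.81 and 0.90 without those arrays. The spread of these 4 genes was thus about as large over the other 195 mice as over all mice. Those 195 mice still hold both Eif2s3y clusters. In the other Eif2s3y-low and the other Eif2s3y-high set alone, the SD was 0.61 and 0.93 for Frzb and 0.70 and 0.76 for Sfrp2. It was 0.63 and 0.61 for Sfrp1 and 0.87 and 0.93 for Lrp6. Of these 4 genes, Lrp6 alone thus kept about its whole spread inside each set, on its more variable probe. The second probe of Lrp6 had an SD of 0.19, and the 2 probes disagree, as described below.

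Sfrp4, Wnt10b and Wnt4 were highest in the ovary-high arrays. Sfrp4 had medians of 1.26 in the ovary-high, -0.97 in the other Eif2s3y-low, -1.80 in the other Eif2s3y-high and -2.19 in the epididymis-high arrays. In 43 of the 52 ovary-high mice it exceeded its level in all 243 others, and the lowest of the 52 was at -0.70. Wnt10b had medians of 1.06 in the ovary-high, -0.46 in the other Eif2s3y-low, -0.63 in the other Eif2s3y-high and -0.73 in the epididymis-high arrays, and again 43 of 52 exceeded every other mouse. Wnt4, which is needed for development of the female gonad, had medians of 0.86 in the ovary-high, -0.32 in the other Eif2s3y-low, -0.56 in the other Eif2s3y-high and 0.08 in the epididymis-high arrays. Of its 52 values in the ovary-high mice 14 exceeded every other mouse and 50 lay above 0, so these sets overlapped.

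Inside the ovary-high set, r with the ovary score was 0.63 for Wnt10b, 0.48 for Wnt4 and 0.42 for Sfrp4. In the other Eif2s3y-low mice these were 0.38, 0.34 and -0.20. Sfrp4 there followed the stromal score, with an r of 0.54, against -0.09 in the ovary-high set, and it kept 0.52 and 0.54 in the other Eif2s3y-high and the epididymis-high sets. Wnt4 followed the mesothelial score in all 4 sets, with an r of 0.58 in the ovary-high, 0.54 in the other Eif2s3y-low, 0.62 in the other Eif2s3y-high and 0.54 in the epididymis-high arrays. That score is a mean over 6 genes, 4 of which had an r above 0.3 to the others.

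**Figure D2:**
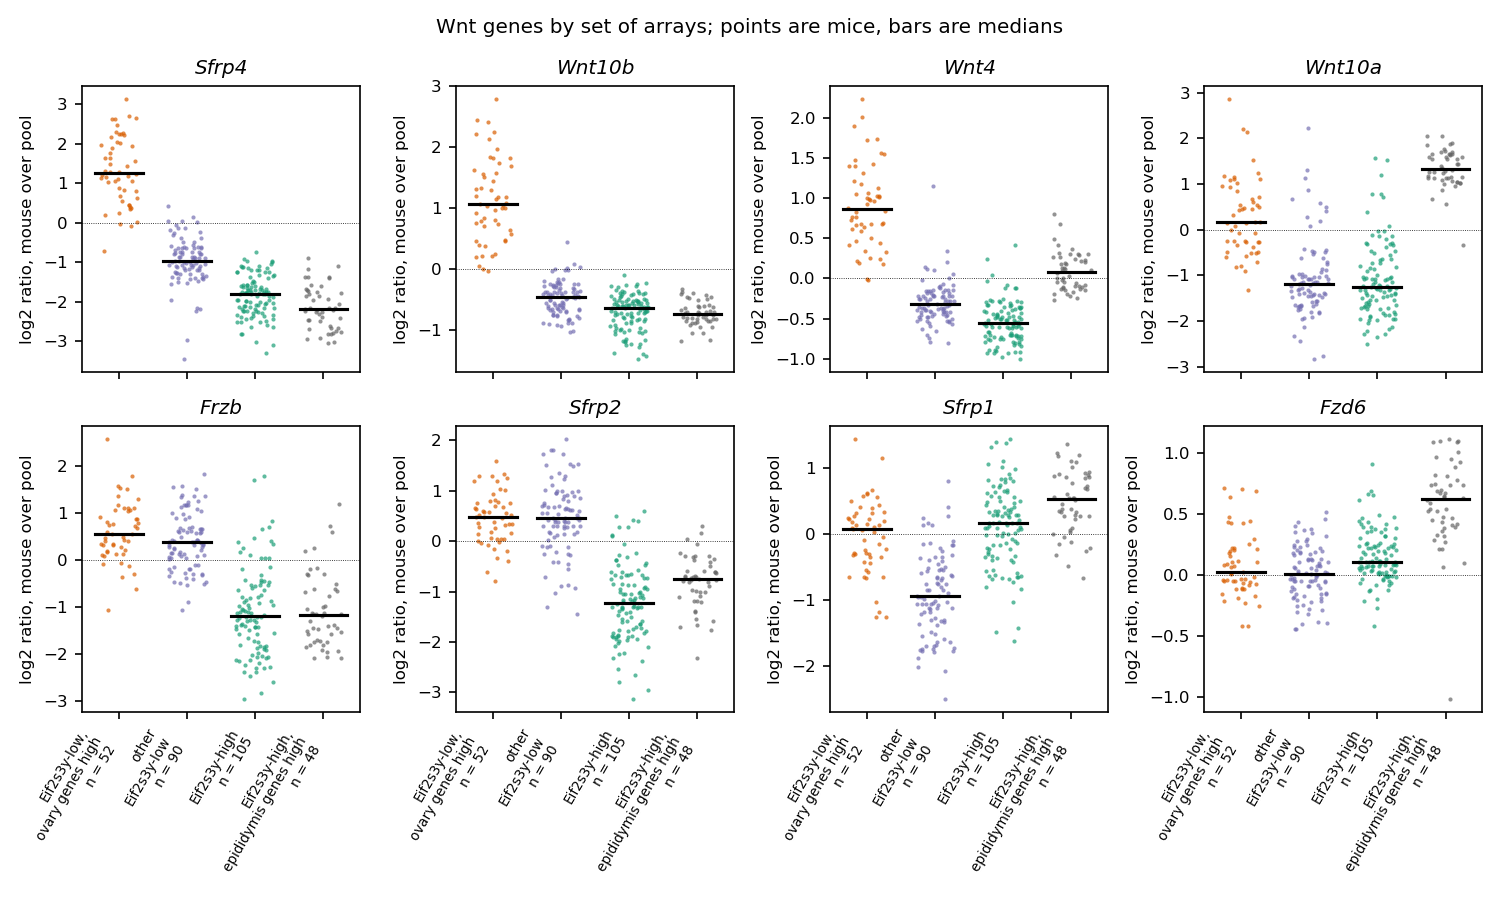
Log2 ratio of mouse over pool (vertical axes) for 8 Wnt genes in 4 sets of arrays: 52 Eif2s3y-low mice with high ovary genes, 90 other Eif2s3y-low, 105 other Eif2s3y-high and 48 Eif2s3y-high mice with high epididymis genes; points are mice and bars are medians. Sfrp4, Wnt10b and Wnt4 stand highest in the first set, Wnt10a and Fzd6 in the last, Frzb and Sfrp2 in both Eif2s3y-low sets, and Sfrp1 is lowest in the other Eif2s3y-low mice.

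Wnt10a, Dkk1 and the receptor Fzd6 were highest, and Fzd4 lowest, in the epididymis-high arrays. Wnt10a had a median of 1.32 there, against 0.16 in the ovary-high, -1.19 in the other Eif2s3y-low and -1.27 in the other Eif2s3y-high arrays. In all 48 it lay above the median of the other mice, and none of the 48 exceeded every other mouse. Dkk1 had a median of 0.57 in the epididymis-high arrays, against 0.09 in the other Eif2s3y-high arrays, and 27 of the 48 exceeded all other mice. Fzd6, a receptor of planar polarity in hair and skin, had a median of 0.62 there, against 0.10 in the other Eif2s3y-high arrays. Fzd4 had a median of -0.47 there, against 0.12 in the other Eif2s3y-high arrays, with 3 of 48 above 0. Wnt10a also followed the epithelial score within every set, with an r of 0.25 in the ovary-high, 0.39 in the other Eif2s3y-low, 0.68 in the other Eif2s3y-high and 0.70 in the epididymis-high arrays.

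Frzb and Sfrp2 were higher in both Eif2s3y-low sets than in both Eif2s3y-high sets. Frzb had medians of 0.54 in the ovary-high and 0.37 in the other Eif2s3y-low arrays, against -1.21 in the other Eif2s3y-high and -1.18 in the epididymis-high arrays. It lay above 0 in 43 of 50 and 67 of 88 mice of the Eif2s3y-low sets with a value, against 15 of 102 and 5 of 48 mice of the Eif2s3y-high sets. Sfrp2 had medians of 0.48 in the ovary-high and 0.45 in the other Eif2s3y-low arrays, against -1.23 in the other Eif2s3y-high and -0.74 in the epididymis-high arrays. It lay above 0 in 43 of 52 and 71 of 90 mice of the Eif2s3y-low sets, against 8 of 105 and 3 of 48 of the Eif2s3y-high sets. The sets overlapped in range for both genes. Sfrp1 ran another way: its median was -0.94 in the other Eif2s3y-low arrays, against 0.07 in the ovary-high, 0.17 in the other Eif2s3y-high and 0.53 in the epididymis-high arrays.

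The relation of each gene to fat was then tested against 5 measures: the mRNAs of Lep, the hormone leptin that adipocytes secrete, and of Mest, an imprinted gene linked to the enlargement of adipocytes, and the adipocyte, macrophage and stromal scores. A gene counted as higher or lower where its slope passed an adjusted p of 0.05 in limma over all probes. Each count stands beside the share of all probes called in that direction. Lep and Mest did not follow the scores alike in each set. The r of Lep with the adipocyte score was -0.08, 0.13, 0.51 and 0.78 in the ovary-high, other Eif2s3y-low, other Eif2s3y-high and epididymis-high arrays. With the macrophage score it was 0.71, 0.25, -0.29 and -0.42. Mest had -0.06, 0.37, 0.69 and 0.79 with the adipocyte score and 0.60, 0.03, -0.55 and -0.62 with the macrophage score.

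With Lep, 12 of the 43 genes were higher and 15 lower, against 38.7% and 28.3% of all probes, and 16 did not pass. By role, over all mice, 6 of 17 ligands and 5 of 11 receptors were higher, but 1 of 9 antagonists, of which 6 were lower. The median r over Wnt genes was -0.07, against 0.03 over all probes. With the ovary-high and epididymis-high arrays left out, 12 genes were higher and 11 lower, against 27.8% and 22.8% of all probes. Counts by role are not given for that setting, so the part of these arrays in them was not tested. The ligands moved both ways: Wnt2b, Wnt9b, Wnt3 and Wnt8a rose with Lep, and Wnt10a and Wnt6 fell.

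Wnt10a had the most negative slope, -1.43 ± 0.13 log2 units per log2 unit of Lep (SE, adjusted p = 9.01e-22) over 292 measured mice and the others at the probe's mean, with r = -0.54 and rho = -0.55. Its r was -0.51 in the ovary-high, -0.62 in the other Eif2s3y-low, -0.39 in the other Eif2s3y-high and -0.18 in the epididymis-high arrays. Wnt6, the neighbour of Wnt10a and also known to hold back adipocyte formation, had r = -0.48 and rho = -0.49, and its r within the sets lay between -0.59 and -0.40. The slope of Wnt6 was -0.37 ± 0.04 (SE, adjusted p = 6.63e-17), and all 12 alternatives kept its r between -0.53 and -0.45. Dkk3 had r = -0.44, but this ran from -0.71 in the ovary-high to -0.14 in the other Eif2s3y-low set. The scaffold genes of the beta-catenin destruction complex were also lower, Axin1 with r = -0.39 and Axin2 with r = -0.31.

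The frizzled receptors Fzd4 and Fzd5 rose with Lep, with r = 0.50 and r = 0.45, and Fzd6 fell with r = -0.32. That of Fzd4 was 0.06 in the ovary-high arrays, 0.26 in the other Eif2s3y-low, 0.58 in the other Eif2s3y-high and 0.71 in the epididymis-high arrays. Fzd6 had r = -0.07 without the ovary-high and epididymis-high arrays, where it no longer passed. Of the ligands, Wnt2b had r = 0.45, Wnt9b 0.42, Wnt3 0.38 and Wnt8a 0.33, and each stayed positive within all 4 sets. Over all members, 9 genes were positive and 13 negative in r with Lep in all 4 sets. The share of all probes that kept 1 sign in this way is not given here, so these counts have no background.

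**Figure D3:**
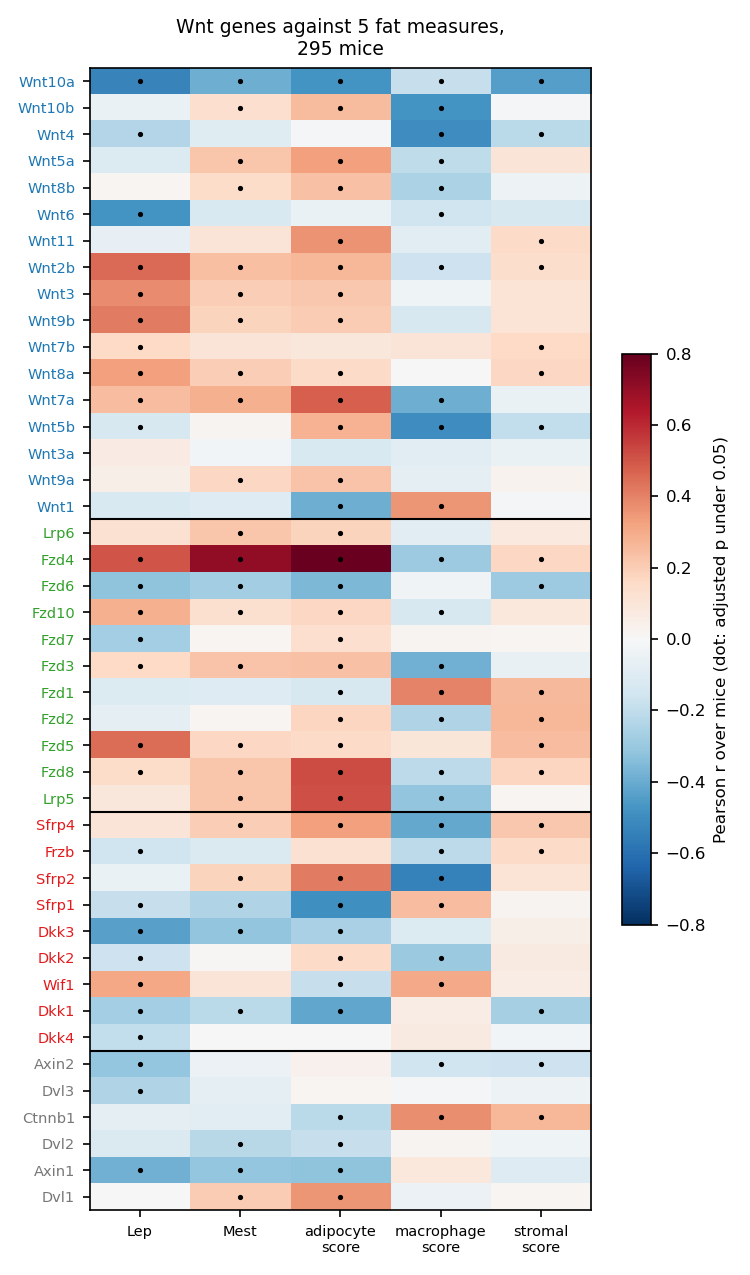
Pearson r over 295 mice (colour) of the 43 Wnt genes, in rows by role (ligands, receptors, antagonists, intracellular genes), with Lep, Mest and the adipocyte, macrophage and stromal scores; dots mark an adjusted p under 0.05. Fzd4 is the darkest red with Mest (0.71) and the adipocyte score (0.79), and Wnt10a is blue in all 5 columns.

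Against Mest, 19 genes were higher and 7 lower, against 33.5% and 23.2% of all probes, and 17 did not pass. Without the epididymis-high arrays 6 were higher and 6 lower, against 15.9% and 15.3% of all probes. Fzd4, a receptor of Norrin and Wnts best known from blood vessels of the retina, stood out in size. Its values ran from -1.73 through a median of 0.06 to 1.07. Its slope on Mest was 0.46 ± 0.03 (SE, n = 295, adjusted p = 2.97e-43), with r = 0.71 and rho = 0.63. The r was 0.36 in the ovary-high, 0.69 in the other Eif2s3y-low, 0.73 in the other Eif2s3y-high and 0.84 in the epididymis-high arrays, and between 0.63 and 0.73 among mice of low, middle and high number. Leaving out the 2 mice farthest from the median of Mest gave 0.68. The next Wnt genes were Wnt7a with r = 0.28, Wnt2b with 0.24 and Fzd3, Fzd8 and Wnt5a with 0.23, 0.23 and 0.22. Wnt2b and Fzd8 were no longer called without the epididymis-high arrays (r = 0.14 and 0.15), nor Wnt7a without both sets and with the Eif2s3y level (r = 0.15). On the negative side Wnt10a had -0.39, Dkk3 -0.32, Axin1 -0.31, Fzd6 -0.28, Sfrp1 -0.24 and Dvl2 -0.22. Fzd6 was no longer called without the epididymis-high arrays (r = -0.10), nor Sfrp1 with the first principal component of all probes in the fit (r = -0.07). Wnt5a turned in the ovary-high arrays, with r = -0.42 against 0.42, 0.39 and 0.28 in the other Eif2s3y-low, other Eif2s3y-high and epididymis-high arrays. Mest itself had r = 0.60 with the macrophage score in the ovary-high arrays, against 0.03, -0.55 and -0.62 in the same order of sets. The part of this in the turn of Wnt5a was not tested.

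The adipocyte score gave 24 higher and 11 lower genes, against 43.6% and 26.9% of all probes, and 8 did not pass. Of the 11 receptors 9 were higher and 2 lower. Without the epididymis-high arrays 15 genes were higher and 9 lower, against 26.1% and 22.6% of all probes. Fzd4 again led with r = 0.79 and rho = 0.76, a slope of 0.46 ± 0.02 per unit of score (SE, n = 295, adjusted p = 4.57e-63). Its r was 0.50 in the ovary-high, 0.71 in the other Eif2s3y-low, 0.86 in the other Eif2s3y-high and 0.84 in the epididymis-high arrays. The endothelial score moved with it as well, with an r to Fzd4 of 0.47, 0.67, 0.78 and 0.83 in the same order of sets. That score itself followed the adipocyte score with r = 0.37, 0.74, 0.81 and 0.83, and its part in the relation of Fzd4 was not tested.

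**Figure D4:**
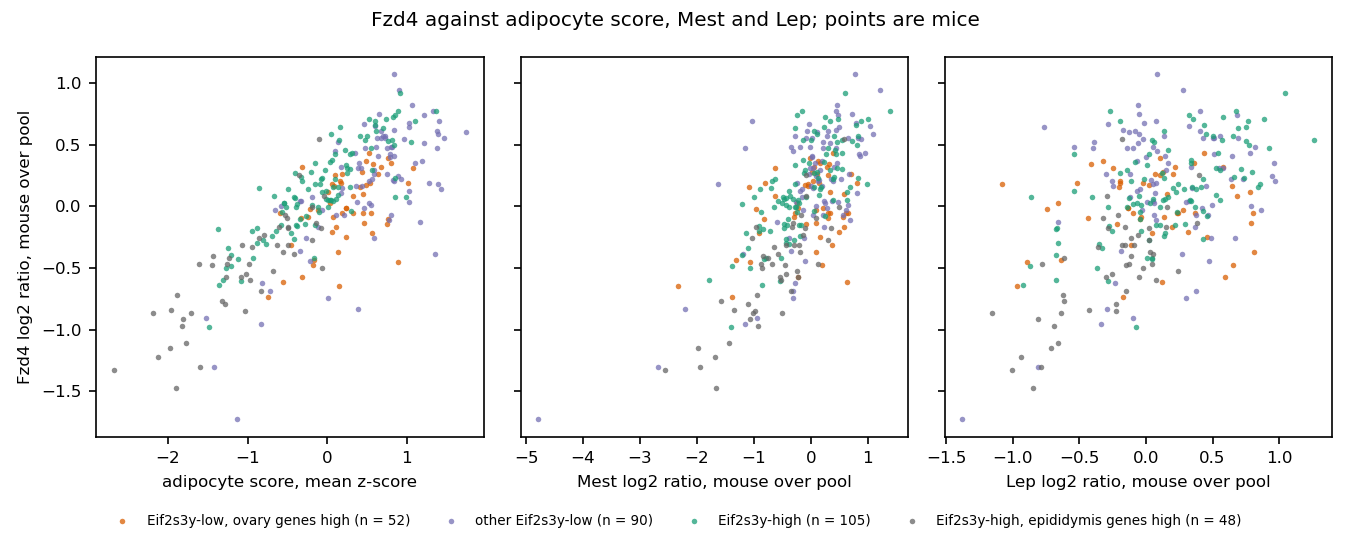
Log2 ratio of Fzd4 (vertical axis) against the adipocyte score, the log2 ratio of Mest and the log2 ratio of Lep (horizontal axes); each point is 1 of 295 mice, coloured by the 4 sets of arrays. The points run upward in all 3 panels, most tightly against the adipocyte score (r = 0.79), and the epididymis-high arrays make up most of the lower end.

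The receptor Fzd8 and the co-receptor Lrp5, though they varied little, followed the adipocyte score with r = 0.52 each. The r of Lrp5 was 0.28 in the ovary-high, 0.43 in the other Eif2s3y-low, 0.49 in the other Eif2s3y-high and 0.19 in the epididymis-high arrays. Wnt7a had r = 0.48, Sfrp2 0.42 and Wnt11 0.36. Sfrp2 was no longer called with the Eif2s3y level in the fit, where r was 0.07. On the negative side Sfrp1 had r = -0.49, a slope of -0.47 ± 0.05 (SE, adjusted p = 2.19e-18), and it stayed negative in all sets, between -0.35 and -0.08. Wnt1 had r = -0.39 and Axin1 -0.32. Wnt1 lost its call under 1 of 13 alternatives, over which its r lay between -0.51 and -0.16. The r of Wnt10a, Dkk1 and Fzd6 were -0.48, -0.42 and -0.36, those of Dkk1 and Fzd6 were 0.04 and 0.03 without the ovary-high and epididymis-high arrays, and that of Wnt10a was 0.02 with the first principal component in the fit.

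With the macrophage score the counts ran the other way, with 5 genes higher and 20 lower, against 26.2% and 30.5% of all probes, and 18 did not pass. The macrophage score is a mean over 19 genes, 18 of which had an r above 0.3 to the others. The adipocyte and macrophage scores themselves ran against each other. Their r was -0.33 in the ovary-high, -0.79 in the other Eif2s3y-low, -0.77 in the other Eif2s3y-high and -0.59 in the epididymis-high arrays. The stromal score rose with the macrophage score, with r of 0.64, 0.29, 0.67 and 0.55 in the same order. The part of these relations in the counts was not tested beyond the fits with another score as a term. The count of 5 was 9 with the Eif2s3y level in the fit, against 28.3% of all probes, and 9 with the adipocyte score, against 34.8%. It was 8 without the ovary-high and epididymis-high arrays, against 24.5%, and 10 without them and with the Eif2s3y level, against 21.2%. Of the 17 ligands 1 was higher and 9 were lower. Wnt5b, a ligand that favours adipocyte formation in cell lines, had r = -0.50 and rho = -0.45, and r of -0.57, -0.33, -0.53 and -0.50 in the ovary-high, other Eif2s3y-low, other Eif2s3y-high and epididymis-high arrays. Its slope was -0.12 ± 0.01 per unit of score (SE, n = 295, adjusted p = 6.61e-19). Sfrp2 had r = -0.54 over all mice but between -0.27 and -0.20 within sets. Wnt10b, Wnt4 and Wnt7a were negative in every set, Wnt10b between -0.40 and -0.21, Wnt4 between -0.55 and -0.20 and Wnt7a between -0.39 and -0.20. Sfrp4 had r of -0.12 in the ovary-high and -0.20 in the other Eif2s3y-low arrays, against 0.11 and 0.21 in the other Eif2s3y-high and epididymis-high arrays, and no r over all mice is given because it falls into clusters.

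Higher with the macrophage score were Fzd1 with r = 0.40, Ctnnb1, the gene of beta-catenin, with 0.37, Wnt1 with 0.36, Wif1 with 0.30 and Sfrp1 with 0.24. Fzd1 had r = 0.44 in the other Eif2s3y-high and 0.42 in the epididymis-high arrays, but -0.02 in the ovary-high and -0.10 in the other Eif2s3y-low arrays. Ctnnb1 had 0.53 in both Eif2s3y-high sets, against -0.09 and 0.03 in the ovary-high and other Eif2s3y-low arrays. Wif1 had the reverse, 0.48 and 0.40 in the ovary-high and other Eif2s3y-low arrays, against -0.11 in both Eif2s3y-high sets. These differences between sets were not tested. Sfrp1 had r = -0.04 with the adipocyte score in the fit, where it was not called.

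With the stromal score 12 genes were higher and 6 lower, against 32.7% and 20% of all probes, and 25 did not pass. That score is a mean over 15 genes, 13 of which had an r above 0.3 to the others. Pi16 had 0.10 and Dpp4 -0.32. Without the epididymis-high arrays 5 were higher and 7 lower, against 16.1% and 18.2% of all probes. The size of r stayed under 0.3 except for Wnt10a at -0.44. Ctnnb1 had r = 0.27 and the receptors Fzd2 and Fzd1 0.26 each, and Fzd2 was positive within every set, from 0.09 in the ovary-high to 0.44 in the epididymis-high arrays. Fzd1 lost its call under 1 of 13 alternatives, over which its r lay between 0.06 and 0.32. Fzd5 had 0.25, Fzd8 0.17, Fzd6 -0.29, Dkk1 -0.26, Wnt5b -0.19 and Axin2 -0.17. Without the ovary-high and epididymis-high arrays r was 0.06 for Fzd5, -0.02 for Fzd8, -0.01 for Fzd6, 0.11 for Dkk1 and -0.10 for Axin2, none of them called. With the macrophage and adipocyte scores in the fit r was 0.03 for Wnt5b. Sfrp4 and Wnt4 were called higher and lower, and Wnt4 had r of -0.35, 0.04, -0.15 and -0.28 in the ovary-high, other Eif2s3y-low, other Eif2s3y-high and epididymis-high arrays.

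Over the 215 relations of 43 genes with 5 measures, 100000 two-sided permutations gave 132 with an adjusted p under 0.05 for r, 141 for rho and 128 for both. They were run for the 43 Wnt genes alone, so these counts have no share of all probes beside them. The smallest p that these permutations can give is 1e-05, or 3.71e-05 after adjustment for r, and the r of Wnt10a, Wnt6, Fzd4 and Wnt5b above reached it. Genes of the pathway outside these 43, in 5 lists, moved in both directions. With the adipocyte score, which called 43.6% of all probes higher and 26.9% lower, of 15 measured genes of Wnt secretion and other receptors 10 were higher and 1 lower, and of 14 Wnt target genes 5 were higher and 8 lower. Apcdd1, a membrane-bound Wnt inhibitor, had r = 0.83. Sox17, a factor that binds beta-catenin, had r = 0.80, with 0.17 in the ovary-high, 0.64 in the other Eif2s3y-low, 0.81 in the other Eif2s3y-high and 0.76 in the epididymis-high arrays. Ppp2r5a, a subunit of a phosphatase of the destruction complex, had r = 0.95. The target genes Ccnd1 and Twist1, for cyclin D1 and a mesenchymal transcription factor, had r = -0.61 and 0.71. Of 10 measured Tcf/Lef factors and cofactors 6 were higher and 2 lower, of 17 destruction complex and cytoplasmic genes 8 and 3, and of 12 planar polarity genes 5 and 4.

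With Lep, the target genes split into 4 higher and 5 lower of 14, against 38.7% and 28.3% of all probes. Myc, the transcription factor gene, had r = -0.50 and was negative in all 4 sets, from -0.65 to -0.34. Tcf7l2, the Tcf/Lef factor tied to diabetes in human genetics, had r = 0.38, and the Dickkopf receptor gene Kremen1 r = 0.45. Celsr1 and Scrib, genes of planar polarity, had r = -0.54 and -0.52. With the macrophage score, which called 26.2% of all probes higher and 30.5% lower, 9 of 15 secretion and receptor genes were lower and 1 higher, among them Apcdd1 at r = -0.72. The R-spondin gene Rspo1 had -0.61 in the ovary-high and -0.63 in the other Eif2s3y-low arrays, but -0.04 in the other Eif2s3y-high and -0.11 in the epididymis-high arrays. Of 14 target genes 7 were higher and 4 lower, among them Fosl1 at 0.74 and Birc5 at 0.65. Birc5 is also a cell division gene. The co-repressor gene Tle4 had r = 0.76.

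By the share of pairs with an absolute r of 0.4 or more, Wnt genes correlated with each other about as often as genes in general. Of 903 pairs, 307 were positive and 255 negative past an adjusted p of 0.05 by permutation, and 341 did not pass. An absolute r of 0.4 or more was found in 14.5% of the Wnt pairs and in 13.5% of all pairs of genes. Of the 903 pairs, 422 kept the sign of r in all 4 sets. Shares of called pairs and of kept signs over all genes are not given here, so these counts have no background.

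The ligands Wnt2b, Wnt3 and Wnt9b and the receptor Fzd10 formed the tightest group. Wnt2b and Wnt9b had r = 0.83, Wnt9b and Fzd10 0.83, and Wnt2b and Wnt3 0.82, all with an adjusted p of 3.21e-05. Within the sets the r of Wnt2b with Wnt3 was 0.94 in the ovary-high, 0.67 in the other Eif2s3y-low, 0.82 in the other Eif2s3y-high and 0.82 in the epididymis-high arrays. Many genes outside the pathway were as close to them. The 20 genes most like Fzd10 had a mean r over the 4 sets of at least 0.92, and those most like Wnt9b of at least 0.87. The other pair among the 4 highest, Sfrp4 with Wnt10b, had r = 0.59 in the ovary-high arrays but 0.15, 0.08 and 0.06 in the other Eif2s3y-low, other Eif2s3y-high and epididymis-high arrays, and no r over all mice is given because of the clusters.

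The 4 most negative pairs all held Axin2, a scaffold that is itself induced by Wnt signals. Its r was -0.67 with Wnt3, -0.67 with Wnt2b, -0.66 with Fzd10 and -0.64 with Wnt9b, each with an adjusted p of 3.21e-05. With Wnt3 it was -0.81 in the ovary-high, -0.76 in the other Eif2s3y-low, -0.42 in the other Eif2s3y-high and -0.43 in the epididymis-high arrays. Array-wide measures and a pancreas score moved with these 5 genes too. In the other Eif2s3y-low set the r with the array median was 0.43 for Axin2, against -0.44 for Fzd10, -0.41 for Wnt9b, -0.34 for Wnt3 and -0.33 for Wnt2b. In the other Eif2s3y-high set it was -0.06 for Axin2, against 0.54 for Fzd10, 0.45 for Wnt9b, 0.38 for Wnt3 and 0.41 for Wnt2b. The r of Fzd10 with the SD over probes was 0.42 in the ovary-high and 0.53 in the other Eif2s3y-low arrays. A score of 2 exocrine pancreas genes had an r in the ovary-high arrays of -0.72 with Axin2, 0.72 with Fzd10, 0.75 with Wnt9b, 0.70 with Wnt3 and 0.75 with Wnt2b, and of smaller size in the other sets. The part of these measures in the pairs was not tested. By contrast Axin2 rose with Wnt5a, with r = 0.61 over all mice and between 0.45 and 0.80 within sets.

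Wnt genes that are neighbours on a chromosome differed in how closely they varied together. Wnt3 and Wnt9b, whose promoters are printed above, start 24.4 kb apart, head to head with no annotated gene between them, and had r = 0.75 and rho = 0.76. Their r was 0.91 in the ovary-high, 0.67 in the other Eif2s3y-low, 0.70 in the other Eif2s3y-high and 0.51 in the epididymis-high arrays. Genes elsewhere were closer to them. Both had a higher r over all mice with Wnt2b, which lies on chromosome 3. The 20 genes most like Wnt3 had a mean r over the sets of at least 0.83 by size. For Wnt9b this was at least 0.87. Of each 20, 2 lay on chromosome 11, that of the pair. The part of their position in their r was not tested. Wnt3a and Wnt9a, also head to head and 16.2 kb apart, had r = 0.32 and rho = 0.19, and r = 0.06 among the mice of the lowest numbers. Wnt1 and Wnt10b, head to head and 11.7 kb apart, had r of 0.08, -0.22, -0.11 and -0.26 in the ovary-high, other Eif2s3y-low, other Eif2s3y-high and epididymis-high arrays. Wnt6 and Wnt10a, with 2 genes between them, had r = 0.20, with 0.55, 0.23, 0.10 and 0.18 in the same order of sets.

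Lrp6, the co-receptor gene, had 2 overlapping modes on its more variable probe. Of 294 mice with a value, 65 lay between -1.5 and -1, then 18 between -1 and -0.5, 30 between -0.5 and 0, 78 between 0 and 0.5 and 58 between 0.5 and 1. The remaining 10 and 35 lay below and above these. Below -0.5 were 93 mice, or 31.6%, with 25% in the ovary-high, 32.6% in the other Eif2s3y-low, 35.2% in the other Eif2s3y-high and 29.2% in the epididymis-high arrays. Its second probe, made for another transcript accession, had an SD of 0.19 and an r with the first of -0.59, -0.17, -0.54 and -0.17 in these sets. The 2 probes thus disagree, and no level of Lrp6 mRNA as a whole can be given. The 2 probes of Wnt8b had an r of 0.09, 0.42, 0.05 and -0.06 in the same sets.

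Most genes most like Lrp6 lay on its chromosome. The likeness was the mean over the 4 sets of r, by size, and the look at positions was chosen after its values were seen. Of the 20 genes most like Lrp6, 18 lay on chromosome 6, its own, which holds 5.18% of the genes. They included Klrb1c at -0.67, Klra7 at -0.67 and Klra1 at -0.64, genes of natural killer cell receptors, Olr1 at 0.59 and Dusp16 at 0.52. Between Lrp6 and these 18 genes stood from 4 to 557 annotated genes, with a median of 132. Of the 18, 6 had a positive and 12 a negative r. For Sfrp1, 12 of 20 lay on its chromosome 8, which holds 4.57% of the genes, among them Wrn at -0.56, Gsr at 0.54 and Vps37a at 0.53. For each of the other 41 Wnt genes this number was between 0 and 4. The genes most like Fzd4 were Mpdz and Npr3, each with a mean r of 0.80, on other chromosomes.

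**Figure D5:**
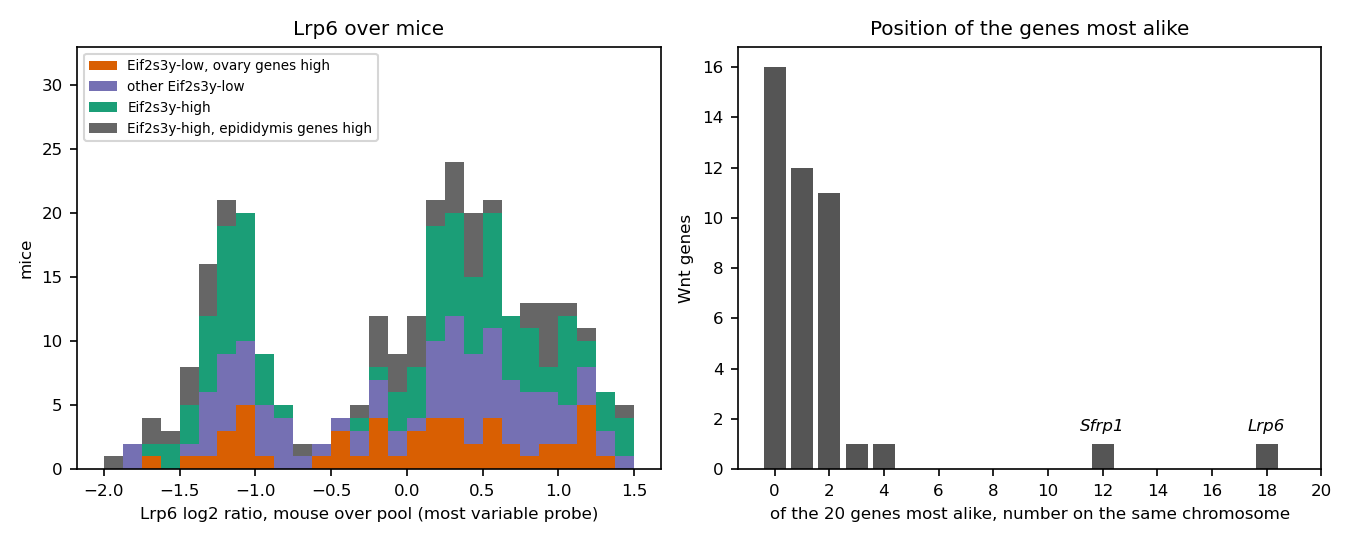
Left, number of mice (vertical axis) by log2 ratio of Lrp6 on its more variable probe, in bins stacked by the 4 sets of arrays; right, number of Wnt genes (vertical axis) by how many of the 20 genes most like them lie on their own chromosome. Mice of every set are found in both the low and the high mode of Lrp6, and Lrp6 (18) and Sfrp1 (12) stand apart from the other 41 genes (0 to 4).

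Finally, the slope on Lep was compared between Eif2s3y-low and Eif2s3y-high mice among the 247 mice without epididymis genes. It differed for 11 of the 43 Wnt genes, 2 with a more positive and 9 with a more negative slope in Eif2s3y-low mice, against 10.3% and 12.8% of all probes, or 23% in either direction. The count for Wnt genes was thus near that of all probes. Without the ovary-high arrays 2 genes differed, Frzb and Dkk3, against 7.15% of all probes. The slope of Frzb was -0.14 ± 0.13 in Eif2s3y-low and -1.08 ± 0.15 in Eif2s3y-high mice, a difference of 0.93 ± 0.20 (SE, adjusted p = 0.000252). Without the ovary-high arrays the difference of Frzb was 1.07 ± 0.24 (SE, adjusted p = 0.00173), and that of Dkk3 0.54 ± 0.18 (SE, adjusted p = 0.0394), with slopes of -0.18 ± 0.13 in Eif2s3y-low and -0.72 ± 0.12 in Eif2s3y-high mice. With the ovary-high arrays the slopes of Dkk3 were -0.73 ± 0.13 in Eif2s3y-low and -0.72 ± 0.14 in Eif2s3y-high mice, and their difference was not called (adjusted p = 0.966). The slope of Frzb was thus the one that differed both with and without the ovary-high arrays. In the 2 Eif2s3y-high sets the endothelial score moved against Frzb, with r of -0.67 in the other Eif2s3y-high and -0.69 in the epididymis-high arrays, against -0.27 in the ovary-high and -0.21 in the other Eif2s3y-low arrays, and its part in the slope was not tested. Lep itself had an r with the macrophage score of 0.71 in the ovary-high, 0.25 in the other Eif2s3y-low and -0.29 in the other Eif2s3y-high arrays. The part of this in the differences of slope was not tested either.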

How the data were processed

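Adipose RNA of 295 F2 mice was measured on 1 two-colour array a mouse, so the number of arrays limits the precision. The deposited table holds log ratios of 23387 probes, which are taken here as log10 although no source states the authors' log base. Their background correction, normalization and filter on dim probes are not given in the sources used here. Direction and centring were read from the values. Array means lay between -0.00991 and 0.0250 and array medians between -0.0521 and 0.0387 (log10). As mouse over pool, the mean linear ratio of Eif2s3y over all mice was 1.17 when read as log10. It was 0.826 as natural log and 0.813 as log2. With the sign turned it was 21.7, 2.84 and 1.91 in the same order. A pool of equal portions would give about 1, and mouse over pool lay nearer to 1 under each base. The direction was taken from this, and the base is not settled by it. Between arrays, r over all probes fell below -0.3 for 944 of 43365 pairs (lowest -0.52), each with exactly 1 epididymis-high array, and the direction was kept for all arrays.

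Values were multiplied by 3.32 to give log2. Probes with values on at least 90% of the arrays were kept (22894, with 493 left out), and 7762 gaps were filled with the probe's mean for the fits. A share of 1.02% of values was missing, and 527 lay at the limits of the table (100-fold). The platform annotation gave 1 symbol to 13644 probes, several to 48 and none to 9695; 12652 of those with 1 symbol matched RefSeq. Each gene is represented by its most variable probe.

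Slopes and differences of slopes were fitted over all probes by limma (3.58.1, under R 4.3.3), and p-values were adjusted over all probes by the method of Benjamini and Hochberg. Correlations were computed with Python 3.11.15, NumPy 2.4.6, pandas 2.3.3 and SciPy 1.17.1, with 100000 two-sided permutations, and figures were drawn with matplotlib 3.10.9. The fitting steps were tested on simulated data. A score is the mean z-score of a list's genes. The genes given values are, for each measure, the up to 6 members with the most positive and the up to 6 with the most negative r among those called, the 8 members with the largest SD, and the 3 genes of each pathway list with the largest r by size. Other members were named after their values were seen. The members, lists and tests were chosen with earlier results of these data known. The ovary list, and the settings that leave out the ovary-high arrays, were chosen after seeing the data. Alternatives were a term for the Eif2s3y level, the first principal component (25.3% of variance), the other scores or 3 ranges of mouse number, removal of array medians, the mean of a gene's probes, probes on every array, limits set to missing, and leaving out the 2 farthest mice or sets of arrays. Mouse number is not a labelled batch.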

Additional observations from a re-analysis of the deposited data

Results flagged for a closer look

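The slope on Lep differed between Eif2s3y-low and Eif2s3y-high mice for 11 Wnt genes by a test of the difference itself (limma, adjusted over all probes, 247 mice). Over all probes 23% were called, near the share of Wnt genes. Both sets come from the data, and the differences are Eif2s3y-low minus Eif2s3y-high, in log2 units per log2 unit of Lep. The difference was 0.93 for Frzb (adjusted p = 0.000252) and 0.17 for Wnt9b (adjusted p = 0.0363). It was -0.70 for the ligand Wnt10b (adjusted p = 0.0055), -0.58 for Wnt5a (0.0011), -0.44 for Wnt4 (0.0286) and -0.24 for Wnt11 (0.0383). For the receptors Fzd3 and Fzd8 it was -0.34 (0.000244) and -0.10 (0.0369), for the antagonist Dkk4 -0.19 (0.0372), and for the intracellular genes Axin2 and Dvl1 -0.27 (0.0432) and -0.15 (0.0261). Without the ovary-high arrays, where 7.15% of all probes were called, Frzb alone of these 11 was called, with a difference of 1.07. That of Wnt10b was then -0.16 (adjusted p = 0.32), of Wnt5a -0.27 (0.32), of Wnt4 -0.08 (0.634) and of Fzd3 -0.18 (0.158).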

How the results depend on the processing

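Of 59 relations of a Wnt gene with a measure, 36 kept their call under every alternative run. Under at least 1 alternative, 18 lost it with the sign kept and 9 changed sign, and some relations did both. The count of genes higher with Mest, 19 of 43, was 12 with the Eif2s3y level in the fit, 12 with array medians removed, 6 with the first principal component, 9 without the ovary-high and epididymis-high arrays, 7 without them and with the Eif2s3y level, and 6 without the epididymis-high arrays. The share of all probes fell too, to 25.1%, 23%, 14.7%, 17%, 16.1% and 15.9% in the same order, against 33.5%. The count lower with Mest, 7, was 12 with array medians removed, where 28.9% of all probes were lower, against 23.2%. With the adipocyte score 24 were higher, but 13 with the Eif2s3y level, 13 without both sets of arrays and with the Eif2s3y level, and 15 without the epididymis-high arrays, with 35.2%, 24.6% and 26.1% of all probes, against 43.6%. The 11 lower were 6 without both sets and with the Eif2s3y level (21.3% of all probes, against 26.9%). With the macrophage score 5 were higher, but 9 with the Eif2s3y level, 9 with the adipocyte score, 8 without both sets and 10 without both sets and with the Eif2s3y level, with 28.3%, 34.8%, 24.5% and 21.2% of all probes, against 26.2%. With the stromal score 12 were higher, but 6 with array medians removed, 6 with the first principal component, 6 without both sets, 7 without both and with the Eif2s3y level, and 5 without the epididymis-high arrays, with 19.7%, 18%, 13.7%, 13.2% and 16.1% of all probes, against 32.7%. The 6 lower were 3 without both sets and with the Eif2s3y level (13.3% of all probes, against 20%). The 11 differences of slope were 2 without the ovary-high arrays (7.15% of all probes, against 23%).

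Signs changed in these cases, as r. With the first principal component they were 0.022 for Wnt10a, 0.069 for Dkk1 and 0.14 for Fzd6 with the adipocyte score, and 0.050 for Dkk1 and -0.0069 for Fzd8 with the stromal score. Without both sets of arrays they were 0.039 for Dkk1 and 0.026 for Fzd6 with the adipocyte score, and 0.11 for Dkk1 and -0.023 for Fzd8 with the stromal score. Without both sets and with the Eif2s3y level they were 0.0063 for Fzd6 with Mest, 0.11 for Dkk1 and 0.19 for Fzd6 with the adipocyte score, and 0.10 for Dkk1 and -0.013 for Fzd8 with the stromal score. Without the epididymis-high arrays they were 0.020 for Dkk1 and 0.011 for Fzd6 with the adipocyte score, and 0.083 for Dkk1 and -0.0038 for Fzd8 with the stromal score. For Sfrp1 with the macrophage score r was -0.025 with the Eif2s3y level and -0.044 with the adipocyte score. With the macrophage and adipocyte scores in the fit, r with the stromal score was 0.22 for Wnt4 and 0.034 for Wnt5b. The cause of these changes was not tested. No paired analysis was possible because all mice form 1 group and the labels give no replicate numbers. The sources used here give no signal over background, so how dim a probe was is unknown.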
